A study of Mus musculus with 50 samples.

Results

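Phlda3 and 9 other genes of the p53 pathway were followed in frontal cortex of wild-type and Setd1a+/- mice from E14 to P70. The question was whether other targets of p53 shared the higher level that Phlda3 had in Setd1a+/- cortex. Phlda3 was picked on its measured difference between the genotypes in these same libraries, so that difference is a description and carries no test. The other 9 genes, Cdkn1a, Mdm2, Ccng1, Bax, Eda2r, Trp53inp1, Zmat3, Sesn2 and Trp53, were listed as p53 targets and, for Trp53, the gene of p53 itself. The 10 genes were found among 55487 genes in the count tables, and all 10 were among the 16330 protein-coding genes with enough counts to be tested.

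RNA from 50 frontal cortex samples was sequenced, 5 wild-type and 5 Setd1a+/- per age, over the embryonic ages E14 and E18 and the postnatal ages P7, P35 and P70. The labels give C57BL/6NTac as strain, and the methods describe a mixed background with C57BL/6J, male mice, and for each embryonic stage a slightly later age than the label. Setd1a+/- mice carried 1 loss-of-function tm1d allele of Setd1a from a knockout-first design, and postnatal samples came from littermates. The RNA came from part of a homogenate that joined both sides and was made in a buffer for synaptic proteins. All poly-A libraries were sequenced in a single batch. Whole tissue was measured, so every level below is a mean over all cell types of the dissected cortex. Total counts per library ran from 35507165 to 43907318, with a median of 38626998.

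The transcription factor p53 is kept scarce in unstressed cells by Mdm2, a ubiquitin ligase that marks it for degradation and whose gene p53 itself activates. Damage to DNA and other stresses release p53 from this loop, and it then raises genes that halt the cell cycle, favour cell death or repair damage. In developing cortex the pathway is best known for removing neural progenitors that carry damaged DNA, and loss of Mdm2 in the embryonic brain causes widespread death of such cells. Phlda3, a small protein with a pleckstrin homology domain, competes with the kinase Akt for membrane lipids and so lowers Akt signalling.

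Some libraries stood apart before any comparison was made. Xist, the RNA of the inactive X chromosome, had 60159 counts in replicate 5 of the E14 wild-type group and 55644 in replicate 2 of the E18 wild-type group, and these libraries had 0 and 11 counts over 4 Y-linked genes. The other 48 libraries had at most 27 Xist counts and at least 4711 Y-linked counts. These 2 wild-type libraries therefore went against the description of all mice as male. Wild-type replicate 2 at P7 had the widest spread of gene-level deviations from its group, with an SD of 0.55 on the log2 scale against at most 0.272 in the other P7 libraries. Its summed oligodendrocyte markers were 1484 CPM (counts scaled to a common library size), against at most 262 in the other wild-type libraries of that age, and its summed choroid plexus markers were 613 CPM against at most 2.85. Progenitor markers summed to 388 CPM in it against 184 to 254 CPM in those libraries, and markers of cortical neurons to 1888 CPM against 2995 to 3105 CPM. Results that rest on these libraries are given below with and without them.

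Markers of cortical tissue were present throughout. Over 9 genes of cortical neurons the summed level ran from 1691 CPM in an E18 library to 7139 CPM in a P70 library, and none of the markers was at 0 in any group. Syt1 was the most abundant of them at P7, and Snap25 at P35 and P70.

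The targeted gene did not check the genotype labels. At E14, Setd1a was at 129, 130, 136, 119 and 119 CPM in the 5 wild-type libraries and at 150, 136, 128, 140 and 130 CPM in the 5 Setd1a+/- libraries. At E18 the wild-type libraries read 93.4, 95.6, 94.6, 85.4 and 100 CPM and the Setd1a+/- libraries 104, 117, 96.9, 104 and 113 CPM. At P7 they read 72.5, 76.2, 70.2, 70.7 and 71.3 CPM against 81.9, 78.3, 76.4, 83.5 and 83.7 CPM. Gene-level counts of Setd1a were thus no lower in Setd1a+/- cortex at these ages, and at P7 all 5 Setd1a+/- libraries lay above all 5 wild-type ones. At P35 the wild-type libraries had 91.7, 82.4, 81.7, 84.6 and 85.2 CPM and the Setd1a+/- libraries 91.9, 88.2, 88.3, 89.4 and 91.6 CPM. At P70 the values were 84.4, 88.7, 84.8, 81.6 and 92 CPM in wild-type and 81.9, 86, 81.5, 76.6 and 97.8 CPM in Setd1a+/- cortex. Across ages Setd1a was 0.10 higher on the log2 scale, with a Benjamini-Hochberg adjusted p of 0.007 in the edgeR quasi-likelihood test and a standard error of 0.03. Of its exon bases, 52.3% are shared with the overlapping genes 9430064I24Rik and Gm49388, and counting took all exons of the gene together, so these counts do not isolate the deleted part.

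Phlda3 had the largest rise with age of the 10 genes, and its mean level in Setd1a+/- cortex was above wild-type at each of the 5 ages. Phlda3 (ENSMUSG00000041801) lies on the plus strand at chr1:135766119-135769136 of GRCm38 and shares no exon base with another gene. At E14 its levels were 5.7, 6.26, 6.22, 6.6 and 6.38 CPM in wild-type libraries and 7.79, 10.7, 7.18, 8.82 and 6.95 CPM in Setd1a+/- libraries, with no overlap. At E18 they were 13.7, 12.1, 14.7, 12.4 and 11.2 CPM in wild-type and 17.3, 15.6, 17.8, 14.3 and 15.5 CPM in Setd1a+/- cortex. Here 4 of the 5 Setd1a+/- libraries exceeded the highest wild-type one. At P7 the wild-type libraries had 16.3, 16.5, 18, 16.5 and 19.2 CPM and the Setd1a+/- libraries 20, 20.1, 23, 19.3 and 19.6 CPM, again without overlap, although the closest pair differed by little. At P35 the values were 35.7, 34.3, 31.5, 32.4 and 34.3 CPM against 38.4, 34.1, 37.7, 40.9 and 34.9 CPM, with 3 Setd1a+/- libraries above the highest wild-type one. At P70 wild-type libraries averaged 32.3 ± 3.74 CPM (SD, n = 5) and Setd1a+/- libraries 34.7 ± 1.31 CPM (SD, n = 5), and 0 of the latter exceeded the highest wild-type library, replicate 4.

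As a description of the contrast on which it was picked, the log2 fold change of Phlda3 over all ages was 0.24 (standard error 0.04), a fold of 1.18. In order of age from E14 to P70 it was 0.41, 0.33, 0.24, 0.14 and 0.10, each with a standard error of 0.08 to 0.09. The P70 value was lowered by wild-type replicate 4, without which the value over all ages was 0.26. The E14 value was raised by Setd1a+/- replicate 2, at 10.7 CPM, without which the value over all ages was 0.22. These were the highest and lowest values without 1 library each. In bulk tissue, more cells that express a gene and more RNA of it per cell cannot be told apart. Without the 2 libraries with Xist and wild-type replicate 2 at P7, the value over all ages was 0.23 (standard error 0.04). Among all 16330 tested genes, 111 (0.68%) were called higher and 612 (3.75%) called lower in Setd1a+/- cortex at an adjusted p under 0.05, 4.43% in either direction. The share of genes with all Setd1a+/- libraries above all wild-type ones was 0.178%, 1.26%, 0.612%, 0.925% and 0.539% in order of age, and nothing is read from this for Phlda3, which was picked on that direction.

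**Figure D1:**
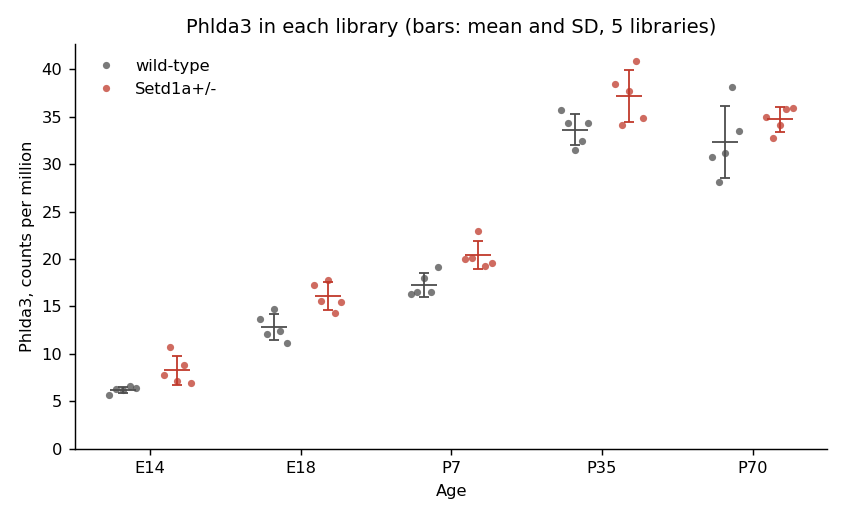
Level of Phlda3 in CPM (vertical axis) at 5 ages (horizontal axis) in each wild-type (grey) and Setd1a+/- (red) library, with the mean and SD of 5 libraries. The means rise from 6.23 and 8.29 CPM at E14 to 33.6 and 37.2 CPM at P35, and the groups are separate at E14 and P7.

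Promoter sequences were read because members that share a regulator may share letters near their start sites. RefSeq promoter windows of 300 bases, from 250 before to 50 after a start site (GRCm38.p6), were matched for 8 of the 10 members, 2 for Cdkn1a and 1 for each other, with no entry for Trp53inp1 or Zmat3. They were searched for the p53 decamer consensus, the 10-base unit of the p53 response element, which reads the same on both strands. It occurred in a window of 5 members, Cdkn1a, Mdm2, Ccng1, Bax and Trp53, and was not found in those of Phlda3, Eda2r and Sesn2. Of 32851 promoter windows of the same length, 8.36% held a match. Only the upstream window of Cdkn1a held a pair, at 73 and 51 bases before the start with a gap of 12 bases, and 0.0731% of all windows held a pair at most 13 bases apart. The second Cdkn1a window, at chr17:29093519-29093818, held no match and is not printed. The windows of Phlda3 and of 3 tested targets are printed, with decamer matches in capitals. The Phlda3 window ends in gaacatgt, the letters that begin the Cdkn1a match nearer to its start site. Letters past the window were not read, so a decamer across its edge would be missed. They lie at chr1:135765835-135766134 (plus strand) for Phlda3, chr17:29090729-29091028 (plus strand) for Cdkn1a, chr11:40755237-40755536 (minus strand) for Ccng1 and chr7:45466849-45467148 (minus strand) for Bax. A match is a string of letters and not evidence of binding, and a window without one says nothing about p53.
Phlda3: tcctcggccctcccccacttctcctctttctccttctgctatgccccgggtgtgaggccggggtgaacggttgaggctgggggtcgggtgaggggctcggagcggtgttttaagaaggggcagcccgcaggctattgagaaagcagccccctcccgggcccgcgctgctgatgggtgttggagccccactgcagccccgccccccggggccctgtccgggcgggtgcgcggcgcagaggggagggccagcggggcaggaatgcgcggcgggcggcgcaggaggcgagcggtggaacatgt
Cdkn1a: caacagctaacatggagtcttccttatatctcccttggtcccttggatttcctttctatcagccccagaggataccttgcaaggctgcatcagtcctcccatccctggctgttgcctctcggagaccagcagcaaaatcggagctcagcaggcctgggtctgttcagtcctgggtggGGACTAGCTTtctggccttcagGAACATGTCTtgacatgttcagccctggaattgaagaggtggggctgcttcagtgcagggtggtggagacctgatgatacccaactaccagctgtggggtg
Ccng1: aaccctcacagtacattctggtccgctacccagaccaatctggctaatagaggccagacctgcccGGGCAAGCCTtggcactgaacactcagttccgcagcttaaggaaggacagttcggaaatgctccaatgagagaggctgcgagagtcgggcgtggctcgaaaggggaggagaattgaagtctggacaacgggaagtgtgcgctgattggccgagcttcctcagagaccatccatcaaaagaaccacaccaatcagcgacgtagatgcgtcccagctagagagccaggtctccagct
Bax: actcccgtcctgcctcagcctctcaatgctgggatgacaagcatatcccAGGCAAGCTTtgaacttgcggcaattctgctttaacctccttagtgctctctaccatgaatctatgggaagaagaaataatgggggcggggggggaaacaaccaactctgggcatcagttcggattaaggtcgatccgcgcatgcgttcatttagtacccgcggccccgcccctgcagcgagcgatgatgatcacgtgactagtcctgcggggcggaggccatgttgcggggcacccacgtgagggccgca

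None of the other 9 genes was called between the genotypes. With age as a covariate, 0 of 9 passed an adjusted p under 0.05 in edgeR, against 4.43% of all tested genes, and 0 of 9 had an unadjusted p under 0.05, against 14.5% of all tested genes. DESeq2 and limma-voom also called 0 and had 0 at an unadjusted p under 0.05. Of the 9 log2 fold changes, 6 were positive, with a median of 0.03, while over all tested genes 50.9% were positive and the median was 0.00124. At single ages the balance varied: in order of age 8, 6, 2, 5 and 7 of the 9 were positive, beside 38.6%, 55.7%, 48.5%, 52.2% and 51.4% of all tested genes. The medians of the 9 were 0.08, 0.05, -0.05, 0.00 and 0.04, beside -0.0287, 0.0165, -0.00372, 0.00477 and 0.00308 over all tested genes. At E14 most of the 9 were thus slightly higher, and whether they moved as a group was not tested. The P7 median was 0.02 without wild-type replicate 2. In the plot of genotype changes with their intervals, the 95% intervals of all 9 include 0 with all libraries. Without wild-type replicate 2 at P7 the log2 fold change of Eda2r was 0.28. Its interval then lay above 0, and it was not called. A p above the threshold does not show equal levels, so the bounds matter. With all libraries the upper bounds for Mdm2, Ccng1, Bax and Zmat3 were 0.03, 0.04, 0.07 and 0.08 on the log2 scale. Those of Cdkn1a and Eda2r were 0.28 and 0.32. The bound of Eda2r rested on wild-type replicate 2 at P7 and was higher without it.

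**Figure D2:**
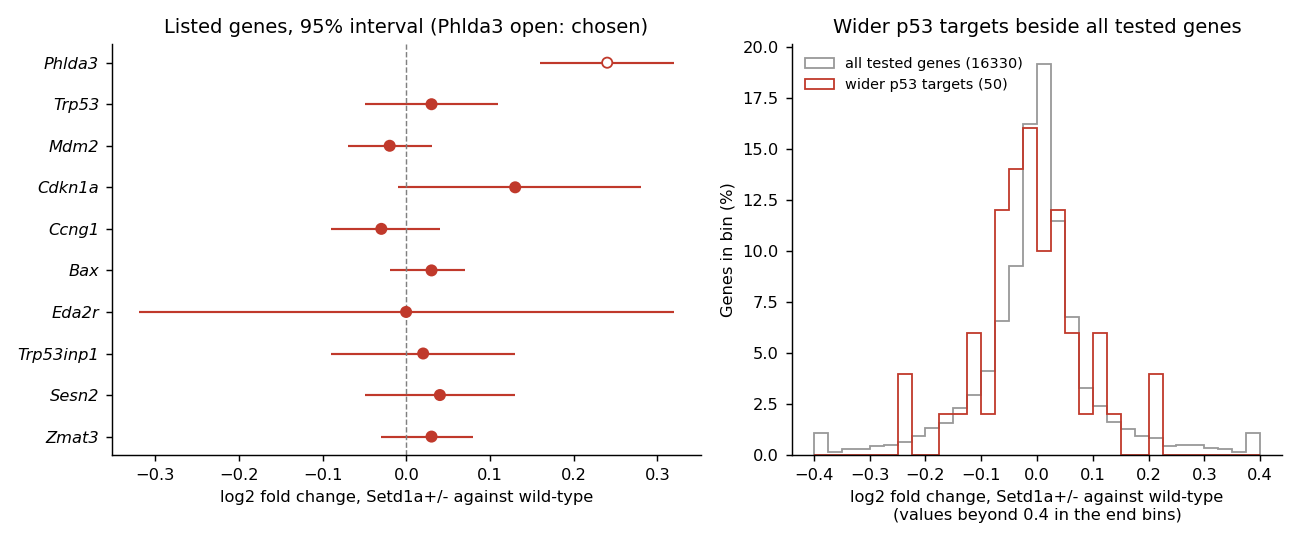
Left, log2 fold change of Setd1a+/- against wild-type cortex with 95% intervals for the 10 genes (50 libraries, age as covariate), Phlda3 drawn open since it was picked on this value. Right, percentage of genes in each bin of the same log2 fold change for 50 wider p53 targets (red) and all 16330 tested genes (grey), where the medians are -0.011 and 0.00124.

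Trp53 encodes p53 itself, whose activity is set mainly at the level of the protein. Its RNA differed between the genotypes by less than its error, at a mean over all ages of 46.7 CPM in wild-type and 48.2 CPM in Setd1a+/- libraries (log2 fold change 0.03, standard error 0.04, edgeR adjusted p = 0.85). At E14 it ran from 93.2 to 109 CPM in wild-type and from 91.1 to 118 CPM in Setd1a+/- libraries, and at P70 from 19.6 to 25.2 and from 21.5 to 23.9 CPM. Wild-type replicate 2 at P7 read 35.1 CPM, where the other 4 wild-type libraries of that age read 23.4, 23.5, 23.1 and 25.5 CPM. Without it and the 2 libraries with Xist, the log2 fold change was 0.07 (standard error 0.03, adjusted p = 0.35).

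Mdm2 closes the feedback loop on p53 and is among the most sensitive p53 targets. Over all ages it was at 52.8 CPM in wild-type and 52 CPM in Setd1a+/- libraries (log2 fold change -0.02, 95% interval -0.07 to 0.03, edgeR adjusted p = 0.78). P7 was the age at which it differed most. The wild-type libraries then had 39.1, 38.9, 36.6, 38.2 and 37.2 CPM, and the Setd1a+/- libraries ran from 33.4 to 36.1 CPM with a mean of 34.5 CPM. All 5 Setd1a+/- libraries lay below all 5 wild-type ones, opposite to Phlda3, and the log2 fold change was -0.14 (standard error 0.05). This did not pass correction (edgeR adjusted p = 0.35), and such separation downward was seen in 1.62% of all tested genes at P7. Those shares were 0.606% and 0.955% in the embryonic groups and 1.32% and 1.26% at P35 and P70, and none of the 8 other tested members was separated in either direction at any age.

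Cdkn1a, the gene of the cyclin-dependent kinase inhibitor p21, is the classic cell cycle target of p53. It had the smallest p of the 9 genes, with a mean above wild-type at 5 of 5 ages, but its libraries overlapped at every age. At E14 it read 13.9, 12.3, 9.17, 12.4 and 10.8 CPM in wild-type and 15.1, 13.8, 14, 15.3 and 11.4 CPM in Setd1a+/- libraries. At E18 the values were 20.1, 22.6, 19, 23.2 and 22 CPM against 28.8, 22.9, 27.1, 27.6 and 18.6 CPM. The Setd1a+/- group at E18 thus held 3 libraries above the highest wild-type one and 1 below the lowest. At P7 they were 44.1, 44.1, 41.4, 39.1 and 45 CPM against 41.8, 40, 45.6, 55.3 and 44.6 CPM. At P35 Cdkn1a varied widely among wild-type libraries, at 26.4, 16.3, 32.8, 39 and 22.2 CPM, against 29.2, 22.4, 28.3, 31.8 and 25.8 CPM. At P70 the wild-type libraries read 29.4, 41.2, 45.2, 28.4 and 21.2 CPM, and the 5 Setd1a+/- ones lay inside that range. The log2 fold change over all ages was 0.13 (95% interval -0.01 to 0.28), with an adjusted p of 0.44 in edgeR. Over 62 alternatives its adjusted p ran from 0.21 to 0.53. Part of its exons, 7.68% of bases, overlaps the annotated gene AC167363.2.

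Ccng1 encodes cyclin G1, a p53 target that acts with a phosphatase on Mdm2. Its mean was 44.9 CPM in wild-type and 44.3 CPM in Setd1a+/- libraries (log2 fold change -0.03, 95% interval -0.09 to 0.04, edgeR adjusted p = 0.80). At E18, 4 of the 5 Setd1a+/- libraries were below the lowest wild-type one, and 1, at 34.3 CPM, was among the higher wild-type values of 29.6 to 36.6 CPM. The contrast at that age gave a log2 fold change of -0.10 with an adjusted p of 0.63 in edgeR.

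Bax, Eda2r and Trp53inp1 act in cell death. Bax forms pores in the outer mitochondrial membrane, Eda2r is a receptor of the tumour necrosis factor receptor family on the X chromosome, and Trp53inp1 promotes phosphorylation of p53 and autophagy. Bax had the narrowest interval of these genes, with a log2 fold change of 0.03 (95% interval -0.02 to 0.07, edgeR adjusted p = 0.71) and means of 69 CPM in wild-type and 70.4 CPM in Setd1a+/- libraries. Of its exon bases 12.2% overlap Gm45808.

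Eda2r was the scarcest member. At E14 it averaged 1.69 CPM in wild-type libraries and 2.24 CPM in Setd1a+/- ones, and by P70 it was down to 0.269 and 0.296 CPM. Its value rested on a single library. At P7 the wild-type libraries read 0.365, 3.75, 0.332, 0.539 and 0.359 CPM, where 3.75 CPM belongs to replicate 2, and the Setd1a+/- libraries 0.839, 0.884, 0.808, 0.219 and 0.602 CPM. With all libraries the log2 fold change over ages was -0.000379 (standard error 0.16, edgeR adjusted p = 1.00). Without wild-type replicate 2 at P7 it was 0.28 (standard error 0.12, adjusted p = 0.28), higher in Setd1a+/- cortex but not past the threshold. The P7 value turned from -0.69 (standard error 0.42) with all libraries to 0.74 (standard error 0.31, adjusted p = 0.86) without that library and the 2 with Xist.

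Trp53inp1 was at 39.5 CPM in wild-type and 40 CPM in Setd1a+/- libraries over all ages, and its log2 fold change was 0.02 (edgeR adjusted p = 0.95, standard error 0.06). Wild-type replicate 2 at P7 again read highest, at 30.5 CPM, where the other 4 libraries of its group ran from 14.1 to 18.2 CPM. Without it and the 2 libraries with Xist the log2 fold change was 0.07 (standard error 0.05, adjusted p = 0.51).

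Sesn2 and Zmat3 belong to stress and growth control: Sesn2 restrains mTORC1 and oxidative damage, and Zmat3 is an RNA-binding zinc finger protein. Sesn2 showed its largest genotype difference at E14 with all libraries. Its wild-type libraries read 6.43, 6.86, 7.3, 7.5 and 6.29 CPM and its Setd1a+/- libraries 7.38, 9.68, 8.33, 9.25 and 6.18 CPM. Of the Setd1a+/- libraries 3 were above the highest wild-type one and 1 below the lowest. The log2 fold change was 0.25 (standard error 0.10), which did not pass correction (edgeR adjusted p = 0.30). Replicate 2, the highest Setd1a+/- library at 9.68 CPM, was also the highest for Phlda3, and with endothelium and pericyte markers as a further covariate, chosen after the data were seen, the Sesn2 value was 0.15 (standard error 0.11) at E14 and 0.18 (standard error 0.11) at E18. At P7, P35 and P70 it was -0.05, 0.00214 and -0.09, and over all ages 0.04 (95% interval -0.05 to 0.13, adjusted p = 0.82). Zmat3 had a log2 fold change of 0.03 (95% interval -0.03 to 0.08, adjusted p = 0.81), from means of 96.4 CPM in wild-type and 97.5 CPM in Setd1a+/- libraries.

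At single ages, edgeR called none of the 9 genes. Those at an unadjusted p under 0.05 were Sesn2 at E14, higher, and Mdm2 at P7, lower, with 0 at the other 3 ages. DESeq2 had 1, 0, 1, 0 and 0 at that p and limma-voom 0, 0, 1, 0 and 0, and both called 0 at each age. Among all tested genes, edgeR called 0.129%, 0.11%, 0.735%, 0% and 0.233% in order of age, and 11.6%, 11.4%, 8.86%, 3.37% and 6.55% had an unadjusted p under 0.05. Shares of called genes at single ages moved with single libraries, from 0.129% to 4.55% at E14 without wild-type replicate 5 and from 0.735% to 0.0427% at P7 without wild-type replicate 2, while the count over the 9 genes was 0 in each of these fits. The joint interaction of age and genotype, fitted with 4 terms, called 0 of the 9 genes and 0% of all tested genes, of which 6.72% had an unadjusted p under 0.05. None of the 9 did, and the smallest p was that of Mdm2 (adjusted p = 0.84). By DESeq2 and limma-voom the interaction called 0 members and had 0 at an unadjusted p under 0.05.

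**Figure D3:**
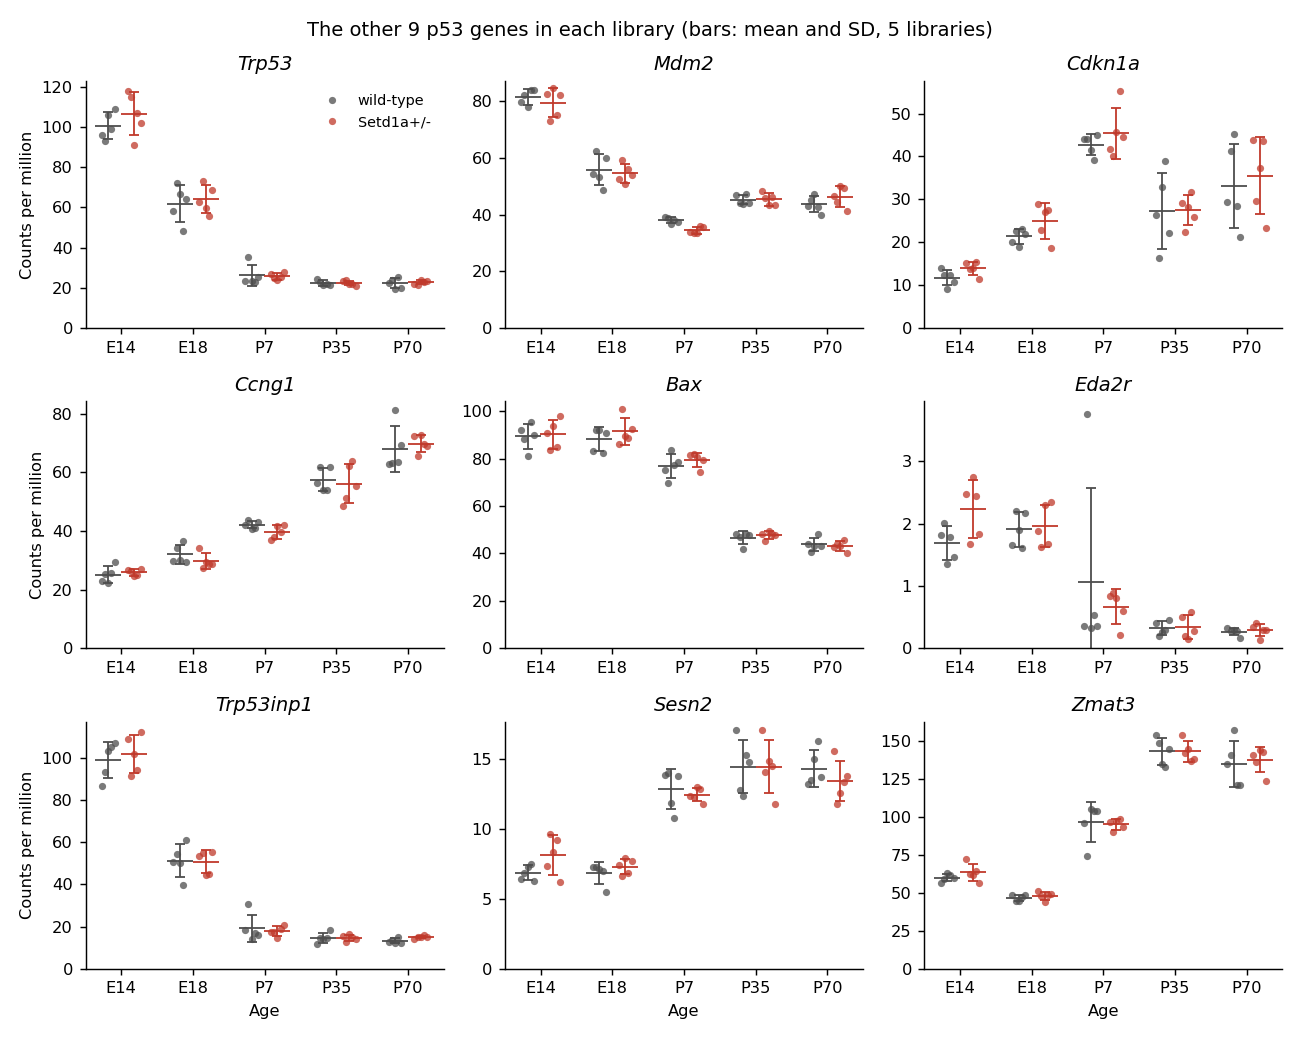
Levels of the other 9 genes in CPM (vertical axes) at 5 ages (horizontal axes) in each wild-type (grey) and Setd1a+/- (red) library, with the mean and SD of 5 libraries; the lower SD bar of Eda2r at P7 passes below 0 and is not drawn further. Groups overlap in all panels except Mdm2 at P7, and 1 wild-type library at P7 stands far above its group for Eda2r, at 3.75 CPM.

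Age moved these genes far more than genotype did, and it divided them into genes that rose and genes that fell. From E14 to P70 in wild-type cortex, Phlda3, Cdkn1a, Ccng1, Zmat3 and Sesn2 rose and Trp53, Mdm2, Bax, Eda2r and Trp53inp1 fell, 10 of 10 called by edgeR beside 85.6% of all tested genes, and the same 5 rose and the same 5 fell in Setd1a+/- cortex, where 85.3% of all tested genes were called. Phlda3 rose by a log2 fold change of 2.37 (standard error 0.09), a fold of 5.18, in wild-type and by 2.07 (standard error 0.09), a fold of 4.19, in Setd1a+/- cortex. Trp53 had log2 fold changes of -2.18 and -2.22 over the same span, in wild-type and Setd1a+/- cortex in that order, so its RNA fell while that of several targets rose. Most genes of the genome changed with age too: 65.9% of tested genes were called from E14 to E18, 67.3% from E18 to P7 and 67% from P7 to P35 in wild-type, and 64.5%, 67.8% and 67.8% in Setd1a+/- cortex. Against that background 7, 9 and 9 of the 10 genes were called in wild-type and 7, 10 and 6 in Setd1a+/- cortex, so age calls are not a result about these genes as a group.

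The courses differed in timing. Phlda3 rose at each step to P35, by log2 fold changes of 1.04 from E14 to E18, 0.43 from E18 to P7 and 0.96 from P7 to P35 in wild-type (standard errors 0.08 to 0.09, edgeR adjusted p at most 1.7e-05), and by 0.96, 0.34 and 0.86 in Setd1a+/- cortex. Its order of levels was P35, P70, P7, E18 and E14 in both genotypes, and only P35 and P70 did not differ past the threshold. Cdkn1a instead had its highest means at P7, at means of 42.7 CPM in wild-type and 45.5 CPM in Setd1a+/- libraries, and had a log2 fold change of -0.65 (adjusted p = 0.001) from P7 to P35 in wild-type and of -0.73 (adjusted p = 0.00026) in Setd1a+/- cortex. P7 was not told apart from P70, where the log2 fold change against P7 was -0.37 (edgeR adjusted p = 0.052) in wild-type and -0.36 (adjusted p = 0.060) in Setd1a+/- cortex. Ccng1 was the only member called between P35 and P70. It rose by 0.31 on the log2 scale (edgeR adjusted p = 0.011) in Setd1a+/- cortex and by 0.24 (adjusted p = 0.11) in wild-type, each with a standard error of 0.07, and whether the genotypes differ in this step was not tested. It was called in Setd1a+/- cortex with all libraries and lost when Setd1a+/- replicate 1 at P35 was left out.

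Zmat3 fell from E14 to E18, with a log2 fold change of -0.36 in wild-type, before rising by 1.05 to P7 and 0.57 to P35. Sesn2 rose in 1 step, by 0.91 from E18 to P7 in wild-type and 0.77 in Setd1a+/- cortex, and was not called in either step beside it. Mdm2 was highest at E14, at 81.4 CPM in wild-type and 79.4 CPM in Setd1a+/- libraries, lowest at P7, at 38 and 34.5 CPM, and rose again to P35 by 0.25 and 0.39. Trp53 and Trp53inp1 dropped most between E18 and P7, with log2 fold changes of -1.24 and -1.41 in wild-type and -1.31 and -1.51 in Setd1a+/- cortex. Bax was level from E14 to E18 (-0.02 in wild-type, adjusted p = 0.77) and fell mainly from P7 to P35, with -0.72 in wild-type and -0.73 in Setd1a+/- cortex.

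The P7 steps of several genes rested on wild-type replicate 2. From P7 to P35 in wild-type cortex, Eda2r, Trp53inp1 and Trp53 were called with all libraries (log2 fold changes -1.74, -0.38 and -0.22). Without that library and the 2 with Xist they were not, at -0.31 (edgeR adjusted p = 0.42), -0.15 (0.22) and -0.10 (0.31), and the count of called members went from 9 to 6. Calls were also gained. In Setd1a+/- cortex the same 3 genes were not called from P7 to P35 with all libraries, at -0.95 (edgeR adjusted p = 0.066), -0.27 (0.062) and -0.20 (0.054), and were called without the 3 libraries, at -0.96 (0.004), -0.28 (0.015) and -0.21 (0.016). From E18 to P7 in wild-type cortex, Eda2r went from -0.82 (adjusted p = 0.065) with all libraries to -2.19 (adjusted p = 4.2e-08) without them. From P35 to P70, edgeR called 0 of 10 genes in wild-type, against 1.06% of all tested genes, with 1 at an unadjusted p under 0.05 and 0 called by DESeq2 and by limma-voom. In Setd1a+/- cortex it called 1 of 10, against 2.98%.

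Per exon length, the order of the members was led by Bax. Averaged over wild-type libraries of all ages, Bax stood at 43.8 counts per kilobase of exon, scaled to library size as CPM is (RPKM), then Phlda3 at 13.1, Ccng1 at 12.8, Trp53 at 11.5, Mdm2 at 10.4, Zmat3 at 8.43, Cdkn1a at 7.67, Trp53inp1 at 6.1, Sesn2 at 3.19 and Eda2r at 0.178 RPKM. The order was the same in Setd1a+/- cortex. Ranges over libraries were wide because age moved the levels, from 3.65 to 24.4 RPKM for Phlda3 and from 4.85 to 27 RPKM for Trp53 in wild-type, so neighbours from Phlda3 to Cdkn1a overlap in this order. The order also changed with age. At E14 in wild-type cortex Phlda3, at 4 RPKM, came after Bax (56.7), Trp53 (24.9), Mdm2 (16), Trp53inp1 (15.3), Ccng1 (7.15) and Zmat3 (5.25), and at P70, at 20.7 RPKM, after Bax (27.8) alone.

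Wider p53 targets were called at about the rate of other genes. Of 51 further targets listed by role, 50 were tested (Gdf15 was too scarce), 21 had a positive and 29 a negative log2 fold change by genotype, and their median was -0.011 beside 0.00124 for all tested genes. None was called higher in Setd1a+/- cortex in edgeR, DESeq2 or limma-voom, and edgeR called 2 of 50 lower. Over all tested genes edgeR called 0.68% higher and 3.75% lower, so a list of this size would hold about as many, and these counts do not set the targets apart. These were Rrm2b, a subunit of ribonucleotide reductase that supplies nucleotides for DNA repair, and Cpt1c, a brain form of carnitine palmitoyltransferase. In edgeR, 6 of the 50 had an unadjusted p under 0.05, where 14.5% of all tested genes had. At E14 none of the 6 role groups held a call with all libraries in any of the 3 tools. The median log2 fold changes there were 0.07 for cell cycle, 0.07 for cell death, 0.09 for secreted and membrane, 0.01 for metabolic, -0.02 for feedback and -0.07 for DNA repair and nucleotide genes, beside -0.0287 for all tested genes. Of the 11 metabolic genes, 5 had an unadjusted p under 0.05 at E14 in edgeR, 4 in DESeq2 and 3 in limma-voom, where 11.6% of all tested genes had one in edgeR, and 2 had one in edgeR without Setd1a+/- replicate 2. Without the 2 libraries with Xist edgeR called 1 metabolic and 1 DNA repair and nucleotide gene at E14. In that fit 4.85% of all tested genes were called at E14, against 0.129% with all libraries.

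Rrm2b was lower at all 5 ages, for example at 25.5 to 27.7 CPM in wild-type and 23.1 to 27.5 CPM in Setd1a+/- libraries at P7, and rose with age in both. Its log2 fold change was -0.11 (95% interval -0.15 to -0.07, edgeR adjusted p = 0.00062). Cpt1c was lower at 4 of 5 ages, with E18 the exception, and ran at P7 from 76.8 to 85.2 CPM in wild-type and from 68.8 to 76.9 CPM in Setd1a+/- libraries. Its log2 fold change was -0.10 (95% interval -0.15 to -0.05, adjusted p = 0.011). Over 62 alternatives the adjusted p of Rrm2b ran from 0.00019 to 0.002 and that of Cpt1c from 0.00063 to 0.025.

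By role, the DNA repair and nucleotide genes held Rrm2b, 1 called of 7, and next to it Ddb2 (log2 fold change -0.07, edgeR adjusted p = 0.13) and Rps27l (-0.11, adjusted p = 0.31). The metabolic genes held Cpt1c, 1 called of 11, then Tigar (-0.07, adjusted p = 0.18) and Fdxr (0.05, adjusted p = 0.51). Cell cycle targets had 0 called of 8, with Plk2 (0.08), Gtse1 (-0.14) and Gadd45a (0.10) nearest to the threshold. Cell death targets had 0 called of 14, led by Pmaip1 (0.21), Pidd1 (-0.09) and Aen (0.05), and the feedback genes Rchy1 (-0.05) and Ppm1d (-0.05) were not called. Secreted and membrane proteins had 0 called of 8, with Sulf2 (0.14) and Pgf (-0.16) foremost. Over these 4 groups Sulf2 alone had an unadjusted p under 0.05 in edgeR, and DESeq2 and limma-voom each had 1 gene at that p and called 0.

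Genes around p53 and Akt gave no call. The edgeR shares over all tested genes to set beside these small lists are 4.43% called and 14.5% at an unadjusted p under 0.05. Among 23 regulators and relatives of p53, 22 were tested (Cdkn2a was not) and 0 were called by edgeR, DESeq2 or limma-voom, with 3, 4 and 3 at an unadjusted p under 0.05. The smallest p values in edgeR were those of Trp63 (log2 fold change 0.35, adjusted p = 0.21), a p53 relative at under 1 CPM, Rpl5 (0.06, adjusted p = 0.23), a ribosomal protein that binds Mdm2, and Trp53bp2 (-0.07, adjusted p = 0.23). Of 15 genes of the Akt pathway, on which the Phlda3 protein acts, none was called or reached an unadjusted p under 0.05 in any of the 3 tools (0 each), with Tsc2 (0.04), Akt2 (-0.04) and Pdpk1 (0.02) foremost. Phlda1, the tested relative of Phlda3, was at 0.09 over all ages (standard error 0.06, edgeR adjusted p = 0.49). At E14 it was at 0.33, with an unadjusted p under 0.05 in edgeR, DESeq2 and limma-voom and a call in none, and without Setd1a+/- replicate 2 it was at 0.10 and above that p in edgeR. Phlda2 was too scarce to test.

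Genes that p53 lowers through p21 and the DREAM complex, mostly of cell division, had a negative log2 fold change in 11 of 11, with a median of -0.153. None was called in edgeR, DESeq2 or limma-voom, and 2, 1 and 1 had an unadjusted p under 0.05. Ccnb2 (-0.31, edgeR adjusted p = 0.085), Cdk1 (-0.20, adjusted p = 0.34) and Ccna2 (-0.15, adjusted p = 0.36) came first. Wild-type replicate 2 at P7, which was also high in progenitor markers, carried most of this. At P7 all 11 had an unadjusted p under 0.05 in edgeR and in DESeq2 but 1 in limma-voom, where 8.86% of all tested genes had one in edgeR, and the median was -0.61. Without that library 0 of 11 did in edgeR and the median was 0.01. Over all ages the median without it was -0.03.

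Of the genes next to Phlda3 on chromosome 1, all 20 protein-coding genes within 500 kb were tested and 0 were called in edgeR, the smallest adjusted p being 0.14, where 4.43% of all tested genes were called. The closest were Tnni1 (log2 fold change 0.15, standard error 0.22), Csrp1 (0.03, standard error 0.06) and Lad1 (0.31, standard error 0.19), of which Tnni1 and Lad1 were at 1.33 and 0.763 CPM. Among the farther ones Pkp1 (0.39, standard error 0.23), Tnnt2 (0.27, standard error 0.18) and Cacna1s (0.27, standard error 0.15), named here after their values were seen, had larger estimates with wide errors, so a difference is not excluded for the scarce neighbours.

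Within groups, where the mean differences between labelled ages and genotypes are removed, Phlda3 varied together with Sesn2. Deviations of log2 CPM from the group mean were correlated over 50 libraries for Phlda3 with each of the 9 genes. With Sesn2, Pearson's r was 0.60 (permutation p = 0.00013, adjusted over 9 pairs 0.001) and Spearman's rho 0.55 (permutation p = 0.00032, adjusted 0.003). It was 0.54 without replicate 2 of the E14 Setd1a+/- group and replicate 4 of the P70 wild-type group, the 2 libraries with the largest deviations of Phlda3, and 0.52 in the 25 wild-type and 0.67 in the 25 Setd1a+/- libraries. Among 16329 tested genes this r ranked 68 from the top, so 67 others followed Phlda3 at least as closely.

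Mdm2 varied against Phlda3, less firmly. Pearson's r was -0.43 (permutation p = 0.010, adjusted 0.045) and Spearman's rho -0.41 (permutation p = 0.012, adjusted 0.056), so only the first passed. It was -0.34 in the wild-type and -0.50 in the Setd1a+/- libraries, and -0.38 without the 2 farthest libraries. Leaving out 1 library at a time gave -0.49 to -0.36, the weakest without Setd1a+/- replicate 2 at E14, and 25 of 55 alternatives no longer passed. It was -0.18 when both genes were adjusted for endothelium and pericyte markers, an alternative chosen after the data were seen. The other 7 genes did not pass, with r from -0.19 for Trp53inp1 to 0.16 for Ccng1, and -0.10 for Cdkn1a (permutation p = 0.50, adjusted 0.75). For some of them the genotypes pointed apart, with r in wild-type libraries of 0.45 for Bax, -0.43 for Cdkn1a and -0.19 for Eda2r and in Setd1a+/- libraries of -0.41, 0.25 and 0.16 in that order, so a pooled value near 0 may join opposite ones, and the difference between genotypes was not tested.

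**Figure D4:**
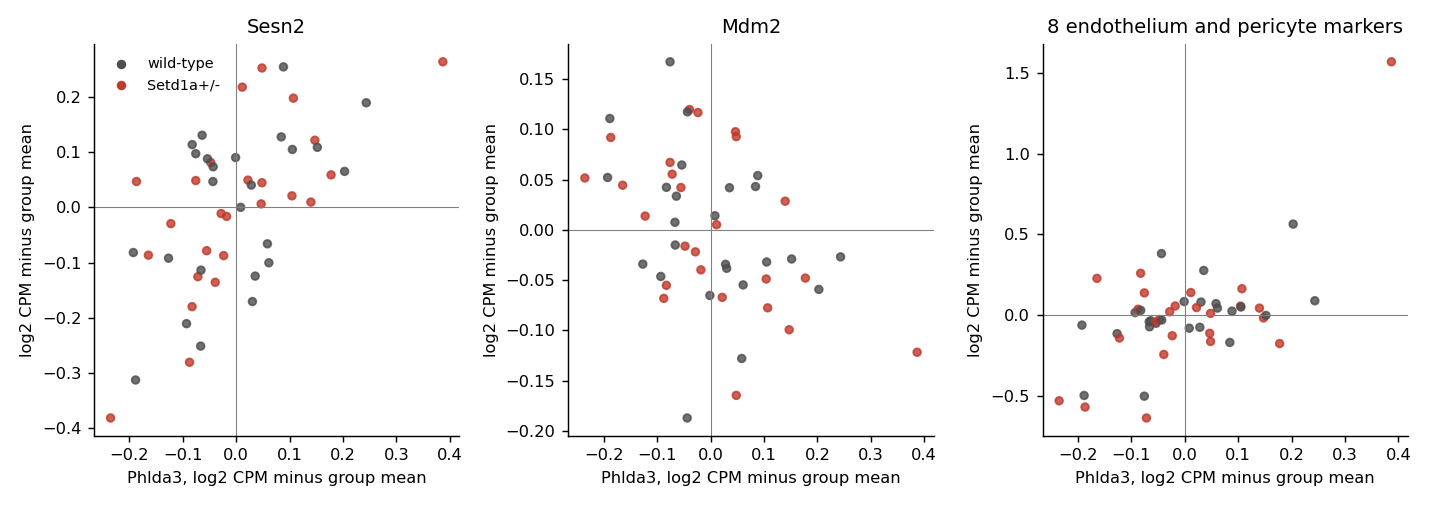
Deviations of log2 CPM from the group mean in 50 libraries (grey wild-type, red Setd1a+/-), Phlda3 on the horizontal axes and Sesn2, Mdm2 or the sum of 8 endothelium and pericyte markers on the vertical axes. Pearson's r is 0.60, -0.43 and 0.60, and the point at the far right is Setd1a+/- replicate 2 at E14.

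Cell type markers moved with Phlda3 within groups as well. Of 12 summed marker lists, microglia (r = 0.59, permutation p = 0.001, adjusted over 12 lists 0.016), endothelium and pericytes (r = 0.60, permutation p = 0.006, adjusted 0.025) and interneurons (r = -0.44, permutation p = 0.005, adjusted 0.025) passed. Spearman's rho was 0.42 (permutation p = 0.008, adjusted 0.050), 0.37 (permutation p = 0.026, adjusted 0.10) and -0.48 (permutation p = 0.002, adjusted 0.019) in that order, so by ranks only interneurons passed. Without the same 2 libraries r was 0.48, 0.43 and -0.43, in wild-type libraries 0.51, 0.52 and -0.36, and in Setd1a+/- libraries 0.63, 0.65 and -0.54. Of the 9 other lists, r ran from -0.15 for oligodendrocytes to 0.43 for meninges (adjusted 0.086). The most abundant markers were Rgs5 for endothelium and pericytes and Dlx1 or Gad1 for interneurons, and no marker of these lists was at 0 in any group. Their part in the covariation of Phlda3 with Sesn2 and Mdm2 is known only from the adjustment for endothelium and pericytes, under which r with Sesn2 was 0.51, and was not tested for the other lists.

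The endothelium and pericyte markers shifted between genotypes at E14 and E18, in opposite directions and with no call at either age with all libraries, and the shift at E14 rested on 1 library. At E14 wild-type libraries summed to 222 ± 29 CPM (SD, n = 5) and Setd1a+/- libraries to 387 ± 316 CPM (SD, n = 5), and of the latter replicate 2, with the highest Phlda3 of that age, had 942 CPM and replicate 4 had 356 CPM. All 8 markers were higher at E14 at an unadjusted p under 0.05 in edgeR, with a median log2 fold change of 0.70, and 0 were called by any tool. Without Setd1a+/- replicate 2 at E14, 0 of 8 were at that p in edgeR and the median was 0.17. Without the 2 libraries with Xist 5 of 8 were called and the median was 0.77. In edgeR with all libraries, 11.6% of all tested genes were at that p and 0.129% were called at E14. The called share was 4.85% without the 2 libraries with Xist. At E18 the sums were 428, 292, 611, 538 and 293 CPM in wild-type and 299, 243, 284, 336 and 282 CPM in Setd1a+/- libraries. There 5 of 8 markers were lower at an unadjusted p under 0.05, with a median log2 fold change of -0.56, while Phlda3 was higher. With all libraries 0 of 8 were called at E18 in any of the 3 tools. In edgeR, 0.11% of all tested genes were called there and 11.4% were at that p. Without Setd1a+/- replicate 2 at E14, edgeR called 4 of the 8 and 0.92% of all tested genes at E18. With the summed markers as a further covariate, the log2 fold change of Phlda3 was 0.28 (standard error 0.08) at E14, 0.45 (standard error 0.08) at E18 and 0.23 (standard error 0.04) over all ages, an alternative chosen after the data were seen.

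Meninges markers had a median log2 fold change of 1.78 at E14, with 5 of 5 at an unadjusted p under 0.05 in edgeR, 4 in DESeq2 and 2 in limma-voom, and 0 called. Without Setd1a+/- replicate 2 at E14 the median was 0.87 and 0 of 5 were at that p in edgeR. Without the 2 libraries with Xist the median was instead 2.39 and 4 were called. In the latter fit 4.85% of all tested genes were called at E14, against 0.129% with all libraries. At E18 the median was -0.41, with 0 of 5 at that p in any of the 3 tools, and the part of these markers in the values of Phlda3 was not tested. Their sum was 922 CPM in Setd1a+/- replicate 2 at E14 and 16.1, 154, 306 and 198 CPM in the other Setd1a+/- libraries of that age, against 6.37 to 218 CPM in wild-type. In the genotype contrast over all ages, edgeR and limma-voom called no gene of the 12 marker lists and DESeq2 called Ttr alone. In edgeR only Ttr and Folr1, both of choroid plexus, had an unadjusted p under 0.05. At P7, edgeR called the oligodendrocyte genes Mag, Mobp and Mbp and the choroid plexus gene Ttr lower, and none of these lists' genes without wild-type replicate 2. Of all tested genes, 0.735% were called at P7 with all libraries and 0.0427% without that library. At E18, DESeq2 called the choroid plexus genes F5, Folr1 and Ttr lower, beside 0.68% of all tested genes. There edgeR and limma-voom called 0 of that list and had 3 and 2 at an unadjusted p under 0.05. The choroid plexus sum there was 231 CPM in wild-type replicate 3 and nearly as high in wild-type replicate 4, against 4.34 to 9.24 CPM in the other wild-type and at most 4.9 CPM in the Setd1a+/- libraries. In edgeR, 2 of that list were called at E18 without the 2 libraries with Xist, 2 without wild-type replicate 2 at P7 and 1 without Setd1a+/- replicate 2 at E14. The share of all tested genes called at E18 was 0.11% with all libraries and 0.469% without the 2 libraries with Xist. Without 1 library each it was at most 0.92%, reached without Setd1a+/- replicate 2 at E14.

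**Figure D5:**
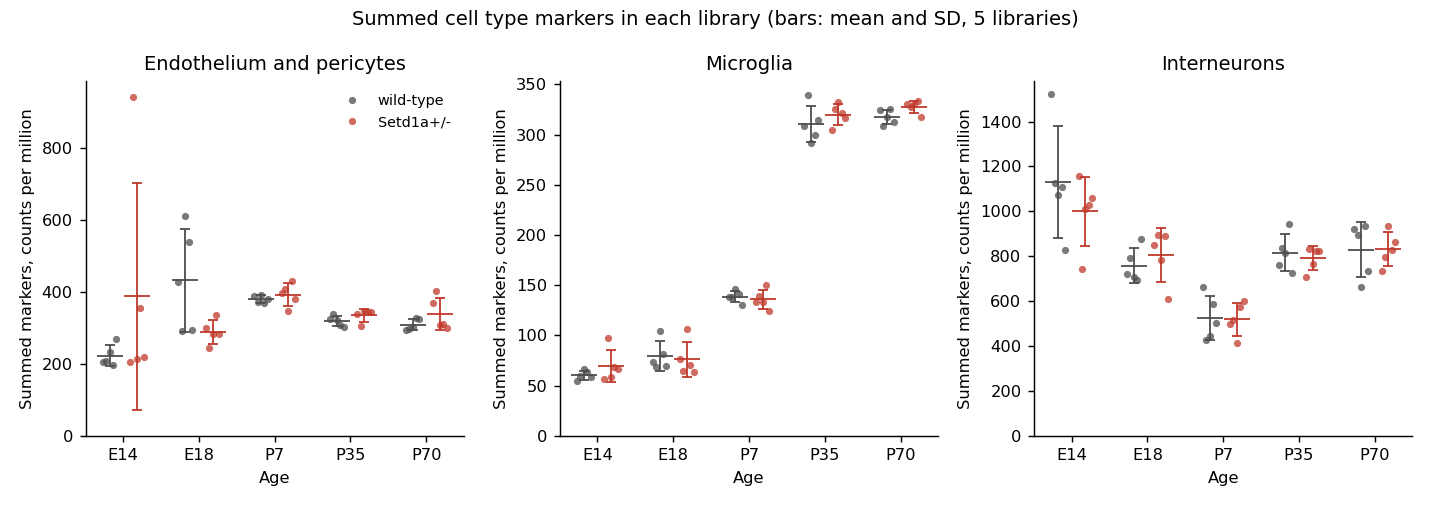
Summed levels in CPM (vertical axes) of markers of endothelium and pericytes, microglia and interneurons at 5 ages (horizontal axes) in each wild-type (grey) and Setd1a+/- (red) library, with the mean and SD of 5 libraries. The highest endothelium and pericyte sum, 942 CPM, is Setd1a+/- replicate 2 at E14, while at E18 the Setd1a+/- mean of 289 CPM lies below the wild-type mean of 432 CPM.

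The genes whose deviations within groups were most like those of Phlda3 over 50 libraries were Itm2a (r = 0.69), C130074G19Rik (0.68), Gm20532 (0.68), Gatm (0.68) and Ctsk (0.67). None was called by genotype in edgeR, with adjusted p from 0.62 to 0.88, and all exon bases of Gm20532 are shared with Egfl7 or Fam69b. Over the 10 group means, among 13101 genes with at least 1 CPM in each group, Tmppe and Cyp4f15 (each r = 0.994), Fhl2 (0.993) and Pde4b (0.991) were among the closest. As a description over the same 10 means, which share their course with age, r with Phlda3 was 0.94 for Ccng1, 0.86 for Sesn2, 0.83 for Zmat3 and 0.73 for Cdkn1a, and -0.76 for Mdm2, -0.87 for Bax, -0.93 for Trp53 and -0.94 for Trp53inp1. Eda2r was below 1 CPM in some groups and was not included.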

How the data were processed

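The files hold raw fragment counts per gene, which the authors made before deposit: reads were trimmed with Trimmomatic, aligned to GRCm38 with STAR and assigned to exons of Ensembl annotation with featureCounts 1.4.6-p2, without strand, a fragment over several genes counting for each (STAR and Trimmomatic versions are not given in the sources used here). The deposited counts were tested with edgeR 4.0.16 (R 4.3.3): TMM scaling, filterByExpr with a minimum count of 10, quasi-likelihood fits with age and genotype or with the 10 groups, Benjamini-Hochberg adjustment over all 16330 protein-coding genes tested and calls at an adjusted p under 0.05. GENCODE symbols matched 55141 of 55487 genes. Intervals are 1.96 standard errors either way (95%). The log2 CPM used a prior count of 2, and RPKM divides CPM by exon length. Permutation tests used 100000 resamples within groups and both tails. Code was tested on simulated data. DESeq2 1.42.0, limma 3.58.1, other scalings and filters, RNA integrity and the replicate number as covariates, and each library left out were alternatives. The text names every listed gene, called genes of the wider lists or else the 3 with the smallest p, the 5 genes most like Phlda3 and its 3 closest neighbours, except for some genes that are not reported here. Members and lists were chosen with earlier results of these data known.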

Additional observations from a re-analysis of the deposited data

Results flagged for a closer look

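Within the 100 groups of 5 libraries formed by 10 genes, 5 ages and both genotypes, 7 held a value whose gap to its neighbour, over the range of the group, passed the 95% critical value of Dixon, where chance gives about 1 in 20 groups. Of these, 3 were high values of wild-type replicate 2 at P7: Eda2r at 3.75 CPM (next value 0.539 CPM), Trp53inp1 at 30.5 CPM (next 18.2 CPM) and Trp53 at 35.1 CPM (next 25.5 CPM). Phlda3 was at 23 CPM in Setd1a+/- replicate 3 at P7, above the next value of 20.1 CPM. Low values were Bax at 42 CPM in wild-type replicate 3 at P35 (next 47.1 CPM), Eda2r at 0.164 CPM in wild-type replicate 5 at P70 (next 0.282 CPM) and Sesn2 at 5.47 CPM in wild-type replicate 5 at E18 (next 7.03 CPM). Causes of these values were not tested.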

How the results depend on the processing

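Over all ages, the direction of the genotype difference was kept under every alternative for every member but Eda2r. Under 13 alternatives and 50 fits without 1 library each, 0 of the 9 members other than Phlda3 were called by edgeR or the tool that replaced it, over all ages, at any single age and for the interaction. With all libraries, 0 were at an unadjusted p under 0.05 over all ages in edgeR, DESeq2 and limma-voom, and this was not counted in the other alternatives. In the replicate block the log2 fold change of Cdkn1a was 0.14 (standard error 0.06, edgeR adjusted p = 0.21), its lowest adjusted p of 62 alternatives. Members called from P7 to P35 went from 9 to 6 in wild-type and from 6 to 9 in Setd1a+/- cortex without wild-type replicate 2 at P7. The log2 fold change of Phlda3 ran from 0.20 to 0.26, that of Rrm2b from -0.12 to -0.10 and that of Cpt1c from -0.11 to -0.09. Leaving out wild-type replicate 2 at P7 together with the 2 libraries with Xist (3 libraries), and the adjustment for endothelium and pericyte markers, were chosen after the data were seen. Requiring at least 10 CPM in at least 5 libraries left Eda2r untested.

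Shares of all tested genes called moved more. At an adjusted p under 0.01 the share by genotype went from 4.43% to 2.49%, the wider targets called from 2 to 1, and members called from P35 to P70 in Setd1a+/- cortex from 1 to 0 (0 to 1 without 1 library each). At that threshold the shares at E14, E18, P7 and P70, 0.129%, 0.11%, 0.735% and 0.233%, became 0.0122%, 0.0184%, 0.116% and 0.0367%. Without 1 library each they ran from 0.00609% (wild-type replicate 1 at E14 left out) to 4.55% (wild-type replicate 5 at E14), from 0.0426% (Setd1a+/- replicate 2 at E18) to 0.92% (Setd1a+/- replicate 2 at E14), from 0.0427% to 1.29% (wild-type replicates 2 and 3 at P7) and from 0.0426% to 0.56% (Setd1a+/- replicates 4 and 5 at P70). The shares at P35 and for the interaction were 0% with all libraries and 0% to 0.0305% without 1 library each.

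DESeq2 called 0.129% of genes for the interaction, 0.698% at E14, 0.68% at E18, 0.0674% at P35 and 0.478% at P70, and limma-voom 0.0612% at E18 and 0.098% at P7. The filter at 10 CPM gave 0.0745%, 0.0579%, 0.488% and 0.00828% at E14, E18, P7 and P35. With all annotated genes, which enlarges the number tested, the 5 ages gave 0.0474%, 0.0733%, 0.362%, 0.00862% and 0.138%, and no filter on low counts gave 0.0749% at E14 and 0.15% at P70. Library size scaling gave 0.0184% at E14, DESeq2 size factors in edgeR 0.0122% at P35, the RNA integrity covariate 0.00612% at E18, and the marker covariate 0.0245% at E14 and 0.0122% at P35. Without the 2 libraries with Xist the shares were 0.0732% for the interaction, 4.85% at E14, 0.469% at E18 and 0.0183% at P35, and without the 3 libraries 0.293%, 7.11%, 1.17% and 0.0305%, and 0.0549% at P7. The causes were not tested.

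The replicate block gave 0.0184% for the interaction, 0.227% at E18, 0.122% at P7 and 0.0184% at P35. Correlations of gene deviations between same-numbered replicates of the genotypes ran from -0.20 to 0.46 over 25 pairs, with a median of 0.06. Among Setd1a+/- libraries of the same age, 7 wild-type libraries correlated best with that of their own number. Whether the numbers mark pairs was not tested.

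The log2 fold change of Eda2r by genotype, -0.000379 with all libraries, turned positive with DESeq2 size factors (0.01), DESeq2 (0.01), limma-voom (0.14), the replicate block (0.12), the marker covariate (0.01) and without the 3 libraries (0.28), and ran from -0.04 to 0.28 without 1 library each. Pairs of Phlda3 past the threshold went from 2 to 1 with library size scaling, without the 2 libraries with Xist, without the 3 libraries and with the marker adjustment (1 to 2 without 1 library each). Within groups, r with Eda2r turned from -0.02 to 0.06 with library size scaling, 0.07 without the 3 libraries and 0.09 with the marker adjustment, and r with Zmat3 from 0.02 to -0.05 without the 3 libraries. Without 1 library each, r with Eda2r ran from -0.07 to 0.06, with Zmat3 from -0.07 to 0.11 and with Bax from -0.09 to 0.17. Over the 5 other alternatives r with Bax, 0.02 with all libraries, ran from 0.01 to 0.30. The causes were not tested.

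Depth limits the scarcest genes. Libraries held 35507165 to 43907318 counts, at which Eda2r averaged 0.269 CPM in wild-type libraries at P70, and Gdf15, Cdkn2a and Phlda2 were too scarce to be tested.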
